A study of Homo sapiens with 8 samples.

Results

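Histone chaperones carry the histones that are not wrapped in DNA and hand them to DNA for nucleosome assembly. During S phase NASP and the ASF1 proteins hold newly made H3-H4, CAF-1 places them behind the replication fork, HIRA and the ATRX-DAXX pair place the variant H3.3 outside replication, and FACT loosens and rebuilds nucleosomes in front of polymerases and the replicative helicase. The genes described here are NASP, ASF1A and ASF1B (supply of H3-H4), CHAF1A and CHAF1B (CAF-1), HIRA, DAXX and ATRX (H3.3) and SUPT16H and SSRP1 (FACT). They were chosen by name, with earlier results of these data known. Each was taken as its RefSeq span on GRCh38 with 20 kb on each side. All 10 were found among the 19970 protein-coding genes of the RefSeq table on chromosomes 1 to 22 and X.

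Open chromatin was mapped by ATAC-seq, an assay that tags accessible DNA with a transposase. The cells were U2OS, an osteosarcoma line that is known to lack ATRX protein. The 4 conditions were siRNA against Orc6, a subunit of the origin recognition complex, with 5 mM H2O2 for 30 min; the control siRNA siGl3 with the same H2O2; siOrc6 untreated; and siGl3 untreated. All cells had 72 h of siRNA and a double thymidine block with 3 h of release, a protocol described by the submitters as synchronization in early S phase. The stage of the cells is not measured by the peak lists. Each condition had 2 libraries but 1 deposited list of accessible regions (peaks), and 4 further lists gave the authors' changed regions, higher or lower under siOrc6 relative to siGl3, with and without H2O2. No value per library was given, so depth is unknown, replicate spread cannot be given and nothing below was tested. The lists held 97816 peaks in siOrc6 with H2O2, 103674 in siGl3 with H2O2, 109304 in untreated siOrc6 and 115292 in untreated siGl3. Of 5 osteoblast markers, RUNX2, COL1A1, COL1A2 and SPARC had a peak within 1 kb of a gene end in every list and ALPL in none. The blood marker PTPRC and the epithelial CDH1 had none there, while CD3E and EPCAM had one in every list.

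Of the 10 genes, 9 had a peak over the annotated start in all 4 lists; DAXX had no listed peak. Within 1 kb of an end, 9 of 10 had a peak in all 4 lists, where 67.0% of all protein-coding genes did. The percentile of a peak is the share of its own list with the same or a lower peak signal. The strongest peak near an end had a median percentile of 92.4 (range 71.4 to 99.6) over the 9 genes in siOrc6 with H2O2 and 92.7 (70.1 to 99.7) in siGl3 with H2O2. It was 94.2 (73.0 to 99.7) in untreated siOrc6 and 92.7 (55.2 to 99.8) in untreated siGl3. The medians over all genes with such a peak lay lower, between 88.3 and 89.8. In every list the median of the chaperone genes lay within the quartiles over all genes. These were 77.9 to 95.8 in siOrc6 with H2O2 and 72.2 to 95.6 in untreated siGl3. For SSRP1 the strongest peak was at the far end of the gene, not over its start. The lists differ in length and the signal grows with width (Spearman correlation 0.842 to 0.882 across the peaks of a list), so a percentile describes a peak in its list and shows no change between lists.

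**Figure D1:**
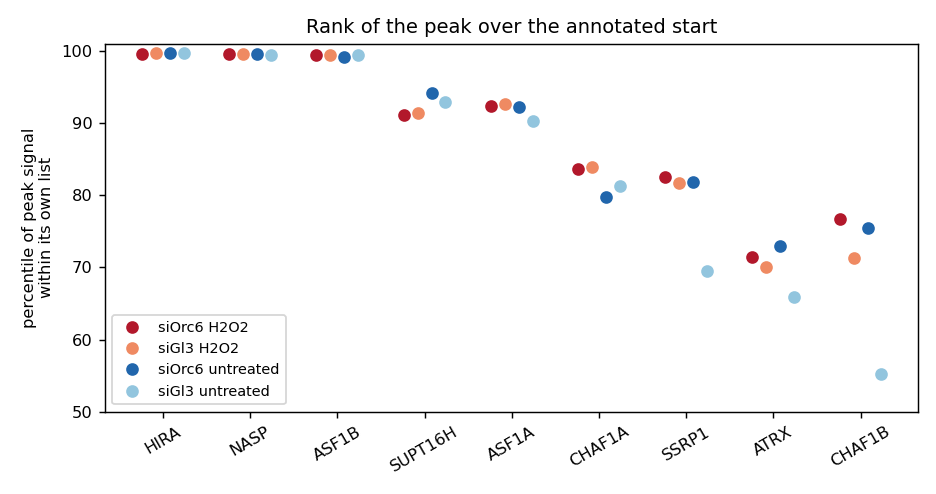
Percentile of peak signal within its own list (vertical axis, from 50) for the peak over the annotated start of 9 genes, 1 point per condition. HIRA, NASP and ASF1B lie above 99 in every list, and CHAF1B has the lowest point, 55.2 in untreated siGl3.

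Around the genes, 2 of 10 had a region called higher in untreated siOrc6 than in untreated siGl3 (CHAF1B and ATRX), where 24.8% of all genes did. A region called lower lay near 2 of 10 (NASP and HIRA), against 17.8% of all genes. With H2O2, 0 of 10 had a region called higher, against 3.30% of all genes, and 0 of 10 a region called lower, against 5.01%. The untreated shares are near the background and say nothing particular of the chaperones. The position of the calls differed: the higher ones covered the annotated start, where 6.81% of all genes had a higher region within 1 kb of an end, and the lower ones lay deep in the gene or near its far end. Of all genes, 0.941% had a lower region within 1 kb of an end, as NASP did. Over all genes too, higher regions were thus found near an end more often than lower ones. With H2O2 the shares of all genes with a region there were 0.240% (higher) and 0.195% (lower), and 0 of 10 chaperone genes had one.

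Among the H3-H4 suppliers, NASP (chromosome 1, 45584041 to 45618893, hg38, plus strand) had one of the strongest peaks of each list over its start. It spanned 2378 bp and ranked 429 of 97816 in siOrc6 with H2O2, and 2111 bp and rank 455 in siGl3 with H2O2. In untreated cells it spanned 2344 bp at rank 449 in siOrc6, against 2112 bp at rank 561 in siGl3. This peak was in no list of changed regions. The start peak thus stood above the 99.5 percentile in every list, and the region called changed lay at the other end of the gene. About midway, 17.7 kb into the gene, a weak peak (45601775 to 45602095, 0.678 percentile) was listed in siOrc6 with H2O2 and in no other list.

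Near the 3′ end of NASP, a region of 481 bp (chromosome 1, 45617627 to 45618107), inside the gene and 786 bp from its end, was called lower in untreated siOrc6. No peak was listed there in siOrc6 with H2O2, while siGl3 with H2O2 had one at the 41.0 percentile. Likewise untreated siOrc6 had none, against one at the 40.9 percentile in untreated siGl3. A second region with peaks in both siGl3 lists and neither siOrc6 list (45623540 to 45624301) lay in the neighbouring gene CCDC17, at the 29.8 percentile with H2O2 and 12.8 without. Between them, another CCDC17 region (45620604 to 45622453) had a peak at the 27.1 percentile in siOrc6 with H2O2 and 52.1 in siGl3 with H2O2, none in untreated siOrc6, and 2 peaks in untreated siGl3 (highest percentile 18.6). NASP and its flanks held 5 merged regions with a peak in siOrc6 with H2O2 and 6 in siGl3 with H2O2, and 3 in untreated siOrc6 against 6 in untreated siGl3. Neither neighbour of the called region was itself called.

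The 250 bases before the start of NASP (RefSeq, GRCh38.p14, chr1:45583791-45584040, plus strand) are shown because this window lies inside the strong start peak of all 4 lists. Capitals mark the motifs searched, here a CCAAT box on the reverse strand, an ETS motif (CCGGAAG) and, closest to the start, a GC box (GGGCGG).
NASP: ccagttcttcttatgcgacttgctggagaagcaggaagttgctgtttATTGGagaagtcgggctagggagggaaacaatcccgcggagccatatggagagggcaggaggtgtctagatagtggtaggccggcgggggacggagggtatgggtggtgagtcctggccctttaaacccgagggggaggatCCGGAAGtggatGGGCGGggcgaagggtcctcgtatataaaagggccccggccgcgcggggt

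ASF1A and ASF1B are paralogues that pass H3-H4 to CAF-1 and HIRA. ASF1A (chromosome 6, 118894152 to 118909171) lies within the span of MCM9 and had 2 merged regions, both listed in all 4 conditions. Its start peak spanned 1875 bp (92.4 percentile) in siOrc6 with H2O2 and 1741 bp (92.7) in siGl3 with H2O2, then 1774 bp (92.3) in untreated siOrc6 and 1709 bp (90.4) in untreated siGl3. The start peak of ASF1B (chromosome 19, 14119512 to 14136589, minus strand) spanned 1878 bp (99.4 percentile) and 1713 bp (99.5) with H2O2 in siOrc6 and siGl3, and 1647 bp (99.2) and 1641 bp (99.4) without it. ASF1B thus ranked above ASF1A in each of the 4 lists. The nearest region called changed was 149 kb from ASF1A, in both lists of higher regions, and 61.4 kb from ASF1B, so neither gene held one in its window.

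The clearest difference among the starts was at CHAF1B, the middle subunit of CAF-1 (chromosome 21, 36385392 to 36419015, plus strand). The peak over its start was 808 bp wide in siOrc6 with H2O2 and 550 bp in siGl3 with H2O2, and 1232 bp in untreated siOrc6 against 597 bp in untreated siGl3. Its percentiles were 76.7 and 71.3 with H2O2 in siOrc6 and siGl3, and 75.5 and 55.2 without. Ranked by −log10 p instead of the signal, which grows with width, they were 77.1 and 74.4 with H2O2, and 64.3 and 53.8 without. The untreated siOrc6 peak was thus the widest of the 4 and the untreated siGl3 peak the lowest in rank. The upstream edges lay 354 bp from the start in untreated siOrc6 and 343 bp in untreated siGl3, while the downstream edges lay at 877 bp in untreated siOrc6, against 253 bp in untreated siGl3, so the added width was inside the gene. The authors called the region of 1233 bp (36385037 to 36386269) higher in untreated siOrc6 and called nothing at CHAF1B with H2O2. The width ratio of 2.06 between untreated siOrc6 and siGl3 stood at the 96.4 percentile of 9189 genes with a start peak in both lists, and the H2O2 ratio of 1.47 at the 91.8 percentile of 9541. The other 3 merged regions around CHAF1B had a peak in all 4 lists and were not called.

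CHAF1A, the large subunit of CAF-1 (chromosome 19, 4402640 to 4450830, plus strand), showed no such widening without H2O2. Its start peak was narrow, 670 bp (83.7 percentile) in siOrc6 with H2O2 and 467 bp (84.0) in siGl3 with H2O2, with 438 bp (79.7) in untreated siOrc6 against 436 bp (81.2) in untreated siGl3. At 4.73 to 11.02 percentile of start-peak widths it was among the narrower starts of every list. With H2O2 the width ratio of 1.43 between siOrc6 and siGl3 stood at the 91.0 percentile, close to that of CHAF1B. No region called changed lay within 20 kb; the nearest, called lower without H2O2, was 44.8 kb away.

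The 250 bases before both CAF-1 starts are shown to set the gene with the called start beside its partner (RefSeq, GRCh38.p14, chr21:36385142-36385391 and chr19:4402390-4402639, plus strand). In CHAF1B the capitals mark 6 GC boxes on either strand, a number reached by 3.22% of 15812 coding promoters. In CHAF1A they mark CCAAT boxes, one of which overlaps its own reverse complement and the E2F motif TTGGCGC, and at the last bases before the start the other E2F motif searched, TTCCCGC.
CHAF1B: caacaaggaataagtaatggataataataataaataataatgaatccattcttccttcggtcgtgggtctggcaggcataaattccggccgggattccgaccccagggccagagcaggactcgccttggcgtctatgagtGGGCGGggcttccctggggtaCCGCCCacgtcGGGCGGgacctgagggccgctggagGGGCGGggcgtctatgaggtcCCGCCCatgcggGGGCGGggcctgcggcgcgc
CHAF1A: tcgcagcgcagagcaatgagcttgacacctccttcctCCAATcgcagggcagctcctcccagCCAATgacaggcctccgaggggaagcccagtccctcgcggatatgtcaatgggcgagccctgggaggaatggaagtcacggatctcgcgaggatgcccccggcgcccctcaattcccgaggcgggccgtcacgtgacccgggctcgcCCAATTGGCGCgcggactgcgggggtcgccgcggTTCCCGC

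**Figure D2:**
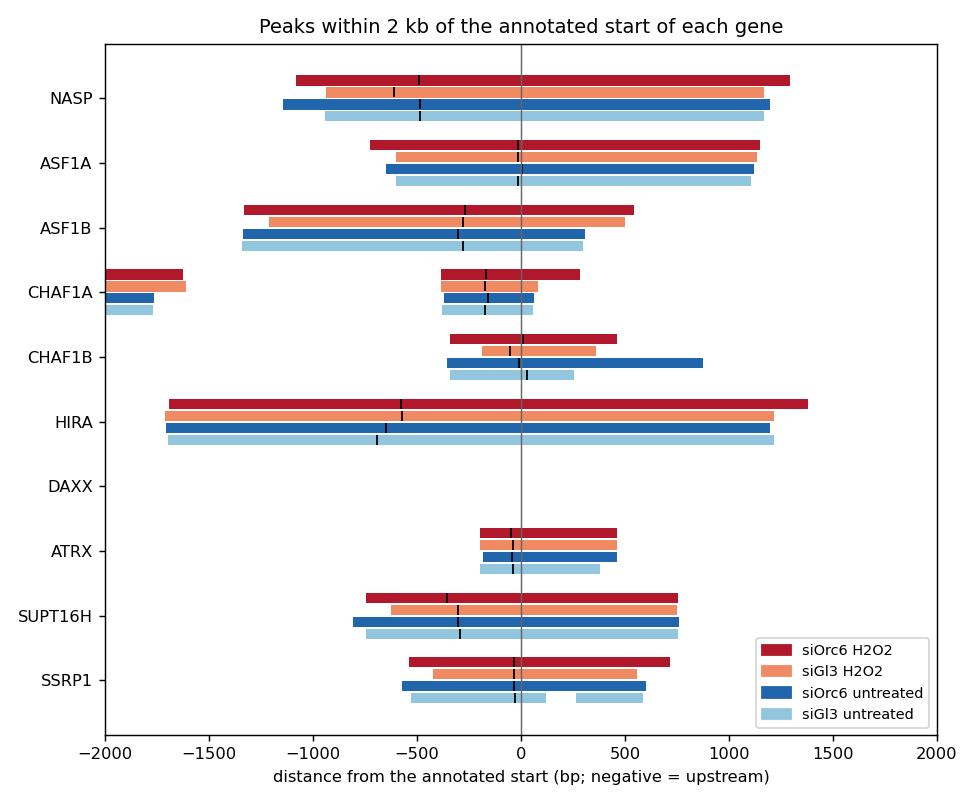
Peaks within 2 kb of the annotated start of each gene (horizontal axis, bp; bars clipped at the edges), with 1 bar row per condition and a tick at the summit of the peak over the start. For ATRX and DAXX position 0 is the end of higher coordinate. The untreated siOrc6 bar of CHAF1B reaches 877 bp into the gene, against 253 bp in untreated siGl3, and DAXX has no bar.

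Bases under peaks within 1 kb of the start count every piece of a split peak, but not the gap between pieces. In untreated cells they also set CHAF1B first. CHAF1B had 808 bp in siOrc6 and 550 bp in siGl3 with H2O2, and 1232 bp in untreated siOrc6 against 597 bp in untreated siGl3. The untreated difference of 635 bp stood at the 98.7 percentile of 10503 genes, whose median was 47 bp. SSRP1 came next there, with 199 bp more in untreated siOrc6 than in untreated siGl3, at the 77.7 percentile. Its untreated siGl3 peaks lay at -0.529 to 0.122 kb and 0.265 to 0.586 kb from the start. The uncounted gap between them is part of this difference. With H2O2 SSRP1 had the largest difference of the 9 genes, 278 bp (89.4 percentile), ahead of CHAF1B with 258 bp (87.9 percentile). Start peaks were wider in siOrc6 than in siGl3 at 9 of 9 genes with H2O2 and 8 of 9 without, but this held for 75.6% of 9541 and 77.7% of 9189 genes in all, so the direction was not particular to the chaperones. With H2O2, peaks were wider than without at 7 of 9 starts in siOrc6 and 6 of 9 in siGl3, against 41.8% and 43.9% of all genes. The differences were mostly small, with median ratios of 1.06 and 1.02, against 0.987 and 0.989 over all genes. The highest ratio in siGl3, 1.51 at SSRP1, came with a split untreated peak. Bases covered there were 982 bp with H2O2 and 974 bp without. At CHAF1B the H2O2 peak was the narrower one under both siRNAs, with ratios of 0.656 in siOrc6 and 0.921 in siGl3.

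**Figure D3:**
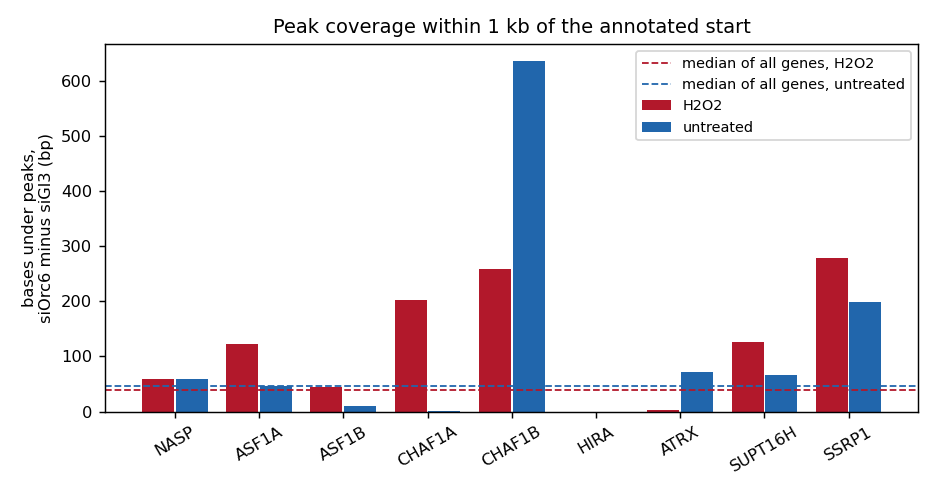
Bases under peaks within 1 kb of the annotated start, siOrc6 minus siGl3 (bp), with bars for H2O2 and untreated lists and dashed lines at the median of all genes with peaks there (40 bp with H2O2 and 47 bp untreated). The untreated bar of CHAF1B, 635 bp, is the highest, and HIRA is at 0 because its peak covers the whole 2 kb in every list.

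HIRA (chromosome 22, 19330698 to 19431733, minus strand) is the H3.3 chaperone that gives its complex its name. Its start peak, which reaches the neighbouring gene MRPL40, had the highest peak signal of the 9 in every list. It was 3076 bp at rank 362 in siOrc6 with H2O2 and 2931 bp at rank 286 in siGl3 with H2O2. In untreated cells it was 2905 bp at rank 346 in siOrc6 and 2917 bp at rank 257 in siGl3. Ranked by −log10 p, it stood below ASF1B in siGl3 with H2O2 (99.1 against 99.7 percentile) and first in the other lists. The HIRA start peak was not called changed. The differences lay in the gene body, where weak peaks were listed in siGl3 and not in siOrc6. HIRA and its flanks held 4 merged regions with a peak in siOrc6 with H2O2 and 6 in siGl3 with H2O2, and 4 in untreated siOrc6 against 10 in untreated siGl3.

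Of the 10 merged regions around HIRA, 5 had a peak in a siGl3 list and in no siOrc6 list, and 0 the reverse; at least 5 such regions were found around 2.53% of all genes, with no allowance for gene length. They lay between 42.2 and 78.4 kb downstream of the start, and 3 of them had a peak in both siGl3 lists. The strongest (19360125 to 19361082) stood at the 35.5 percentile in siGl3 with H2O2 and the 38.6 in untreated siGl3. The region that the authors called lower in untreated siOrc6 was one of the weakest, 254 bp (19354342 to 19354595), with a peak at the 0.974 percentile in untreated siGl3 and none in the other 3 lists. Over all regions listed in untreated siGl3 and in no siOrc6 list, the median percentile was 12.8. The strongest of the 5 was thus above that median, and it was not called.

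The 250 bases before the start of HIRA (RefSeq, GRCh38.p14, chr22:19431734-19431983, minus strand) are shown as the window under the start peak of highest signal. Capitals mark 4 GC boxes, an E2F motif (TTCCCGC) and an ETS motif on the reverse strand (CTTCCGG).
HIRA: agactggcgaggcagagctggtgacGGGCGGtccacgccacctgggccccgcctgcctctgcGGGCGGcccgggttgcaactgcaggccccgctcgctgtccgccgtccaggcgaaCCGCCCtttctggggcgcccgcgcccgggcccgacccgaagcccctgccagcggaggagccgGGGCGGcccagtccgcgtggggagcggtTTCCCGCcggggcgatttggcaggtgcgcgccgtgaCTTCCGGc

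ATRX (chromosome X, 77504880 to 77786216) is the remodeller that works with DAXX at telomeres and repeats. Its start is the end of higher coordinate, and the peak there was 663 bp (71.4 percentile) in siOrc6 with H2O2, 660 bp (70.1) in siGl3 with H2O2, 650 bp (73.0) in untreated siOrc6 and 578 bp (65.8) in untreated siGl3. The authors called the region of 663 bp (77785751 to 77786413) higher in untreated siOrc6, the difference in listed width being 72 bp, at the 56.6 percentile of all genes for bases covered. The call at ATRX thus came with an ordinary difference in extent, unlike that at CHAF1B. Across the remaining gene, more than 1 kb from either end, 1 merged region was listed (77564914 to 77565221), with a peak in siOrc6 with H2O2 (11.3 percentile) and in siGl3 with H2O2 (20.2) and in neither untreated list. The window held 12.4 merged regions per Mb, below the median of 35.0 for 1396 genes over 200 kb but at the median of 12.5 for the 56 of them on chromosome X.

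DAXX, the H3.3 chaperone itself (chromosome 6, 33318558 to 33322959), had 0 peaks within 20 kb in all 4 lists, as did 8.75% of genes. It lies in a stretch of 4.54 Mb (28943732 to 33481283) with no listed peak, which holds 168 protein-coding genes, more than any other stretch over 1 Mb. Genes used by nearly every cell, such as RPS18, TUBB and BRD2, are in it and also had 0 peaks within 20 kb. Each list also held 7 to 11 peaks on alternate versions of chromosome 6 sequence, which were not used here. These lists therefore hold no value for DAXX.

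**Figure D4:**
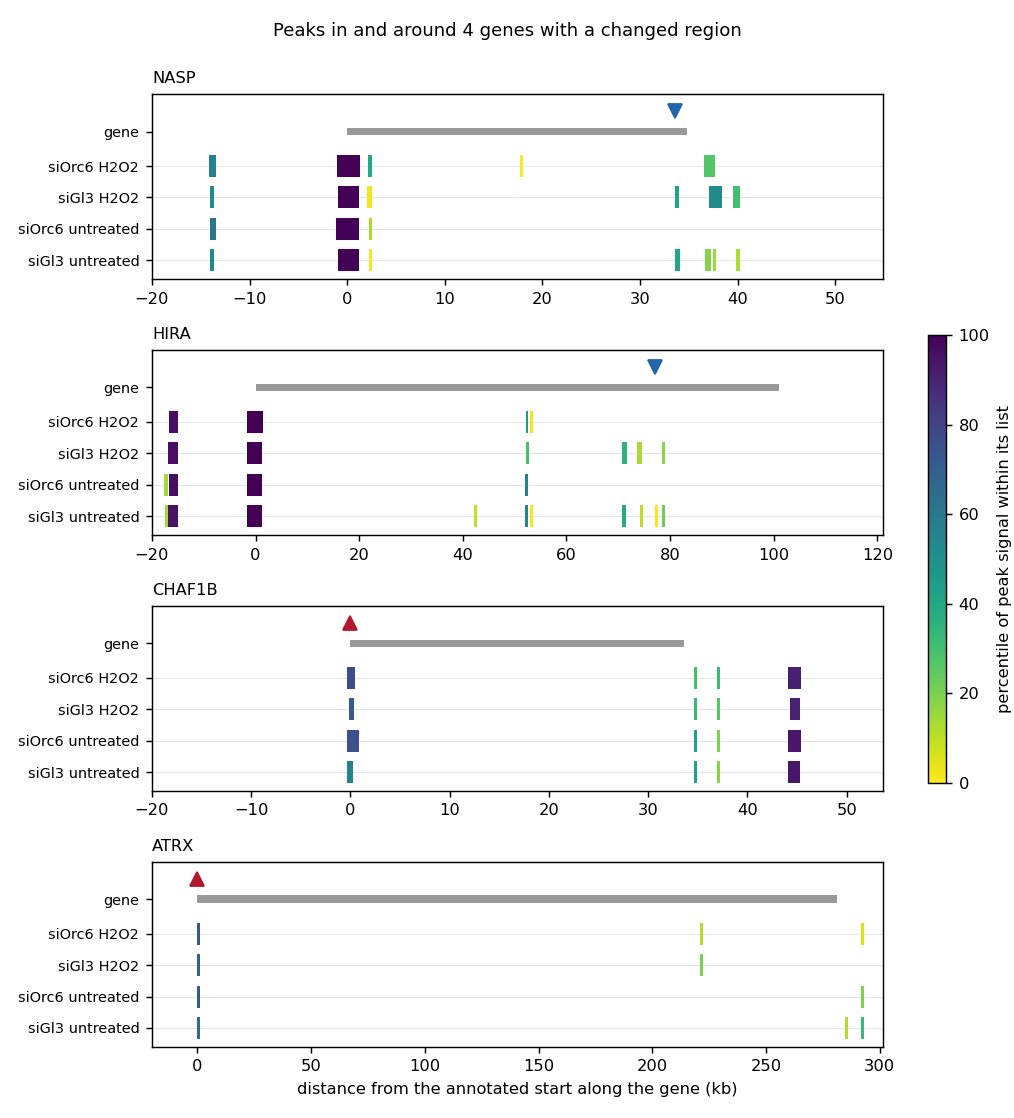
Peaks (bars, at least a minimum drawn width) along NASP, HIRA, CHAF1B and ATRX with 20 kb on each side, by distance from the annotated start (kb, along the gene), 1 row per condition and coloured by percentile of peak signal. Triangles mark regions called higher (red, up) or lower (blue, down) in untreated siOrc6. In HIRA the untreated siGl3 row shows 10 regions and the untreated siOrc6 row 4.

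FACT consists of SUPT16H and SSRP1. SUPT16H (chromosome 14, 21351476 to 21384019, minus strand) had 1 merged region in its window, the start peak: 1501 bp (91.1 percentile) in siOrc6 with H2O2, 1375 bp (91.4) in siGl3 with H2O2, 1571 bp (94.2) in untreated siOrc6 and 1504 bp (92.9) in untreated siGl3. SSRP1 (chromosome 11, 57325988 to 57335892, minus strand), whose start lies 58 bp from P2RX3, had 7 merged regions, 6 of them in all 4 lists. Its start peak was 1260 bp (82.5 percentile) in siOrc6 with H2O2, 982 bp (81.8) in siGl3 with H2O2, 1173 bp (81.8) in untreated siOrc6 and 652 bp (69.5) in untreated siGl3. In untreated siGl3 a second peak lay beside it, within 1 kb of the start, so the width of 652 bp understates the covered stretch there. At the far end of SSRP1, shared with TNKS1BP1, the region 57321718 to 57326116 was 1 peak at the 99.6 percentile in siOrc6 with H2O2, 2 peaks in siGl3 with H2O2, 2 in untreated siOrc6 and 3 in untreated siGl3. Neither FACT gene had a called region within 20 kb, the nearest being one called lower without H2O2, 36.4 kb from SSRP1.

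Taking all windows, 47 merged regions lay near the 10 genes, of which 28 (59.6%) had a peak in all 4 lists, against 62.1% of 129052 merged regions. In 10 of 47 (21.3%) a siGl3 list had a peak and no siOrc6 list did, against 12.7% of all regions, and 5 of these 10 were at HIRA and 2 at NASP. The reverse was found in 1 of 47 (2.13%), against 8.20% of all regions. Regions with a peak in an H2O2 list and no untreated list made up 8.51%, against 5.88% of all regions, and those with an untreated peak and no H2O2 peak 10.6%, against 16.2%. Regions called higher without H2O2 numbered 2.05 per Mb of chaperone windows, against 2.88 per Mb of all gene windows, and those called lower 2.05 against 2.26.

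**Figure D5:**
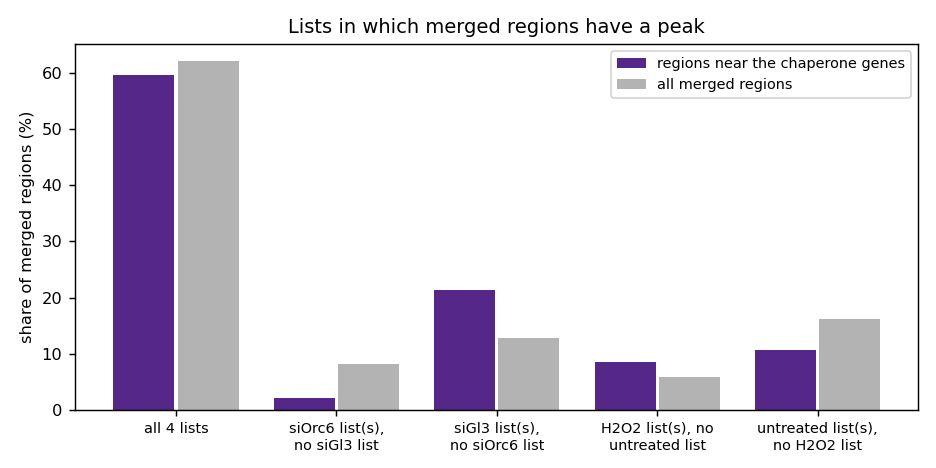
Share of merged regions (%) by the lists in which they have a peak, for the 47 regions near the chaperone genes (dark) and all 129052 merged regions (grey). Regions with a siGl3 peak and no siOrc6 peak make up 21.3% near the chaperones and 12.7% of all.

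The upstream windows of 8 of the 10 genes were in the RefSeq table. They held a median of 23.5 CG dinucleotides in 250 bases, against 17 over 15812 coding promoters. The GC box was found in 5 of 8 (56.0% of all promoters), the CCAAT box in 3 of 8 (NASP, ASF1B and CHAF1A; 34.4%), the E2F motifs in 2 of 8 (CHAF1A and HIRA; 10.6%) and the ETS motif in 3 of 8 (NASP, HIRA and SUPT16H; 11.8%). TGACGT, the core of the cAMP response element, was in 0 of 8 (8.65%) and GCATGCG, the core of the NRF1 site, in 0 of 8 (4.52%). Letters were matched exactly on both strands, and a match is a description of sequence.

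Other chaperones and their partners were read from a list of 37 genes, chosen with earlier results of these data known. The shares below describe this list and are no independent support for a difference from all genes. In untreated siOrc6, 13 of 37 (35.1%) had a region called higher within 20 kb, against 24.8% of all genes, and 3 of 37 (8.11%) one called lower, against 17.8%. With H2O2, 1 of 37 (2.70%) had a higher region (NPM1), against 3.30% of all genes, and 1 of 37 a lower one (APLF), against 5.01%. Regions called higher lay within 1 kb of an end of 5 of 37 genes (13.5%), against 6.81% of all genes, and covered the start in each: H3-3B, which encodes H3.3, HAT1, which acetylates new H4, RBBP7, its partner, HJURP, the chaperone of the centromeric CENP-A, and SET, which binds histones and inhibits their acetylation. At HJURP the start peak stood at the 93.0 percentile in siOrc6 with H2O2 and 91.5 in siGl3 with H2O2, and 93.0 in untreated siOrc6 against 89.8 in untreated siGl3. At RBBP7 these values were 74.0 and 64.9 with H2O2, and 75.2 in untreated siOrc6 against 57.7 in untreated siGl3. At SET the untreated values were 95.2 in siOrc6 and 89.5 in siGl3. At H3-3B and HAT1 the untreated siOrc6 percentile was slightly the lower one (99.3 against 99.4 and 89.7 against 90.0). For others, among them ANP32E, DNAJC9, IPO4, MCM2, NAP1L1, NPM1 and PML, the higher region lay outside the gene, 3475 to 14201 bp away. Those near DNAJC9, IPO4 and MCM2 overlapped other genes, namely MRPS16, TM9SF1 and PODXL2 in that order. Lower regions lay in SUPT6H and 16474 bp from SETDB1, and one 8313 bp from APLF, where siGl3 had a peak with and without H2O2 and siOrc6 had none, was called lower under both treatments. By role, a higher region lay near 5 of 9 genes of H3-H4 supply and partners of ASF1 and NASP, 2 of 4 of the ATRX-DAXX partners and H3.3 genes, 2 of 5 of CENP-A deposition, 4 of 13 of the H2A-H2B chaperones and others, 0 of 3 of the HIRA complex and 0 of 3 of the CAF-1 partners, against 24.8% of all genes. The groups are small, and no difference between them was tested.

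By the percentiles of the strongest gene-end peak in the 4 lists, the gene most like CHAF1B among 13381 genes was PLSCR4 (Euclidean distance 4.45 points) and the gene most like ATRX was CMBL (1.89). Both also had a region called higher without H2O2 within 20 kb, as did 24.8% of all genes. The percentiles used for matching were already higher in untreated siOrc6 than in untreated siGl3 (PLSCR4 74.8 and 55.4, CMBL 73.0 and 64.5). The shared call is therefore not independent of the match. MUC1 was most like NASP (0.0249) and PRADC1 most like HIRA (0.0450), both with no called region there. With 4 lists and so many genes, close matches are common among high percentiles.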

How the data were processed

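ATAC-seq was done on 8 libraries of U2OS cells, 2 in each of 4 conditions, numbered by batch in the labels, which do not say whether they came from separate cultures. Per the submitters' processing notes, the tools were edgeR, Genrich, deepTools, SAMtools, Picard, Bowtie2 and bcl2fastq 2.20 and the build was hg38. Roles, thresholds, read shifting and the treatment of duplicates and multiply matching reads are not given in the sources used here. Of the deposited peak columns, column 5 is a display score (not used), column 7 the authors' peak signal, at least 200.0 in every list, columns 8 and 9 are the authors' −log10 p and −log10 q, and column 10 is the summit offset. The deposited changed regions come as positions only.

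Other sequences than chromosomes 1 to 22 and X were left out. Overlapping or touching peaks of the 4 lists were merged, and a merged region or changed region belonged to a gene when it overlapped the RefSeq span (GRCh38.p14) with 20 kb on each side by at least 1 bp. Starts and upstream sequences came from a RefSeq promoter table of the same build with strand. The 250 bases before the start are shown. For ATRX the start was set to the end of higher coordinate. The members and gene lists were chosen with earlier results of these data known. Named genes were the 10 members, list genes with a changed region within 20 kb, the neighbours of regions near members and the most like gene at least 1 Mb away; RPS18, TUBB and BRD2 were chosen after their values were seen. DAXX was kept in all counts. Some genes of the lists are counted but not reported here by name. Overlap functions were checked on simulated regions. Python 3.11.15, numpy 2.4.6 and pandas 2.3.3 were used.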

Additional observations from a re-analysis of the deposited data

How the results depend on the processing

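Of 53 values recomputed under other settings, 45 stayed within 1.5 times of the count reported or within 1 SD over the genes of a median percentile. Some of these 45 were fixed beforehand and show no robustness. A count of 0 stays 0 under a narrower or stricter window, and the count of genes with a gene-end peak cannot fall with a wider one. The counts of genes with a region called higher or lower were the same with 5 kb on each side and for the gene body alone. They were also the same with at least 50% of the changed region inside the window. The counts with H2O2 stayed at 0 also with 50 kb, where 5.35% of all genes had a higher region and 7.73% a lower one. With 50 kb on each side, genes with a lower untreated region numbered 4 and such regions 4 (CHAF1A and SSRP1 joined NASP and HIRA), and 27.6% of all genes had one. Those with a higher untreated region numbered 3 (HIRA joined CHAF1B and ATRX), against 37.1% of all genes. Merged regions near the genes numbered 84 with 50 kb, 22 for the gene body alone and 23 with peaks at or above the median signal of their list. Those in all 4 lists numbered 51 with 50 kb, 17 with 5 kb and 13 for the gene body alone; these counts scale with the window or the peaks kept. Median percentiles ranged from 90.3 to 94.2 when ranked by −log10 p or with gene ends of 3 kb. No paired analysis was possible because each condition had 1 list for both libraries, and leaving out a replicate was not possible for the same reason. Presence in a list depends on its unknown depth, so a peak missing from a list may lie just under the authors' threshold.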
